A study of Mus musculus with 2 samples.

Results

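The collecting duct is the last tubule segment of the kidney, where the water, sodium and urea content of urine is set under hormonal control. Vasopressin binds its receptor AVPR2 on principal cells and, through cyclic AMP and protein kinase A, moves the water channel AQP2 to the apical membrane. Water then leaves through AQP3 in the basolateral membrane, and urea crosses the inner medullary duct through transporters encoded by Slc14a2. Aldosterone acts on the mineralocorticoid receptor, which the enzyme HSD11B2 shields from glucocorticoids, and induces the kinase SGK1, which keeps the epithelial sodium channel at the cell surface. SCNN1B and SCNN1G are the beta and gamma subunits of that channel.

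The 8 genes described here, Aqp2, Aqp3, Avpr2, Scnn1b, Scnn1g, Hsd11b2, Sgk1 and Slc14a2, were taken by name for these roles from 10208 genes named on the array. Each has 1 named probe, and all 8 were above 0 in both arrays, among 9985 such genes. Kidney RNA came from 1 Mxi1 +/+ mouse, labelled as the control, and 1 Mxi1 -/- mouse, labelled as the experiment, both marked 1Y, and was hybridized to 1 single-colour CodeLink oligonucleotide array each. MXI1 pairs with MAX and counteracts MYC at E-box sites in DNA. The labels used here give no sex, strain or treatment, and do not state which part of Mxi1 is deleted or in which cells.

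The deposited values are linear intensities with a median of 0.929 in the Mxi1 +/+ array and 0.935 in the Mxi1 -/- array. Every difference below is the median-centred log2 intensity of the Mxi1 -/- array less that of the Mxi1 +/+ array, so a negative value is lower in Mxi1 -/-. There is 1 mouse per genotype, so the spread between animals is unknown and no p-value was computed. The spread available is within arrays: the log2 differences of probes for the same gene had a standard deviation of 0.167, from 41 genes with exactly 2 probes whose mean level reached the median of all probes. Probes and genes that reach it are called brighter below. It holds no variation between animals, dissections or hybridizations. Mxi1 itself read 4.31 in the Mxi1 +/+ kidney and 1.69 in the Mxi1 -/- kidney, a log2 difference of -1.35, in the direction of the labels.

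Promoter sequences are shown for the members that carry the letters of the E-box CACGTG, to which MAX dimers including MXI1-MAX bind. Avpr2 is also shown, since it carries TGTTCT, the complement of AGAACA, repeated in the same direction. The sequences are from RefSeq (GRCm38.p6) and span the 250 bases before an annotated start. Capitals mark matches, on either strand, to the E-box CACGTG, to the cAMP response element core TGACG, or to the NFAT5 tonicity core TGGAAA. Also in capitals is AGAACA (its complement reads TGTTCT), a single arm of the steroid receptor element. The sequences run 5′ to 3′ on the gene's strand, which is plus for all 3.
Aqp2, chr15:99578806-99579055: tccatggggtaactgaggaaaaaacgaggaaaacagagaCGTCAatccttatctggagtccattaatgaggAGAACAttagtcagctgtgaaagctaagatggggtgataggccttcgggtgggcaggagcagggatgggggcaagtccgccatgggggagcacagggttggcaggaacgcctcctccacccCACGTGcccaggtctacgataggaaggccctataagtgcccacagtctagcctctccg
Sgk1, chr10:21993640-21993889: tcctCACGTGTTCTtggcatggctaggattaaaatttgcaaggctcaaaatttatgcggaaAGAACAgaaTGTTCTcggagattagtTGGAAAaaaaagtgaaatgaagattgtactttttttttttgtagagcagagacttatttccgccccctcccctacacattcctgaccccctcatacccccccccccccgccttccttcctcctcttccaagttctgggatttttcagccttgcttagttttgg
Avpr2, chrX:73891852-73892101: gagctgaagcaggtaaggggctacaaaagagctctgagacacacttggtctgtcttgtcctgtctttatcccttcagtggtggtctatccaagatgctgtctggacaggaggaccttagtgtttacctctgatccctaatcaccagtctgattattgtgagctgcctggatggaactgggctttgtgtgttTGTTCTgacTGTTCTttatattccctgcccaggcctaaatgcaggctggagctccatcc

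Sequence windows were used for 6 of the 8 genes, 11 windows in all, since Sgk1 has 6 annotated starts. Hsd11b2 and Slc14a2 had no window here, so the counts below do not cover them. CACGTG stood in 2 of the 11 windows, against 6.02% of the 32851 windows of all genes: at 58 bases before the Aqp2 start, and at 246 bases before the start of the Sgk1 window shown. The other 5 Sgk1 windows lacked it, and the probe does not tell which Sgk1 start was in use. AGAACA occurred in 5 windows, from Aqp2, Avpr2 and Sgk1 (16.1% of all windows). In the Sgk1 window an AGAACA match overlaps the E-box. The same window holds AGAACA and its complement as an inverted pair, at 189 and 180 bases before the start. In Avpr2 the matches lie at 59 and 50 bases before the start and run in the same direction. TGACG stood in 2 windows, of Aqp2 and Sgk1 (17.8% of all), TGGAAA in 2 Sgk1 windows (18.6% of all), and the full element TGACGTCA in none (1.55% of all). The windows of Aqp3, Scnn1b and Scnn1g held none of these letters. A match describes the letters of the window and is not evidence that a factor binds there.

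The 4 genes of the vasopressin arm were the receptor, both water channels and the urea transporter. In the Mxi1 -/- kidney 3 of them read lower, as did 59.9% of all brighter genes. Avpr2 read 10.1 in Mxi1 +/+ and 7.95 in Mxi1 -/-, a log2 difference of -0.35 (1.27-fold lower). Its channel Aqp2 read 21.3 and 17.5, a log2 difference of -0.28 (1.21-fold lower). The differences of receptor and channel lay 0.07 apart on the log2 scale. That gap is smaller than the standard deviation of 0.24 for 2 probes, so it does not separate them or show a shared change. Aqp3, which lets the water out on the blood side, read 2.48 and 2.51, a log2 difference of 0.02. The difference of Aqp2 lay below that of Aqp3 by 0.30, where the probe spread above gives a standard deviation of 0.24 for a gap between 2 probes.

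Slc14a2 stood furthest from equality of the 8. It read 1.31 in Mxi1 +/+ and 0.795 in Mxi1 -/-, a log2 difference of -0.72 (1.64-fold lower). Its mean log2 level was -0.0021, where the median of all probes was -0.013, so it is only just counted as brighter. Both of its readings were above the noise floor of their array, by 12.8 times in Mxi1 +/+ and 5.10 times in Mxi1 -/-. That floor is 3 times the root mean square of an array's values below 0 and came to 0.102 and 0.156. When the measured genes were divided into 4 equal bins by level, 7.69% of the genes in its bin had a lower difference than Slc14a2. Adding the array median to every value before taking logs moved its difference to -0.38, since that setting shrinks the differences of dim probes.

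The 4 genes of the aldosterone arm went both ways, 2 lower and 2 higher, where 59.9% of all brighter genes were lower. Hsd11b2, the enzyme that inactivates glucocorticoids in these cells, read 30.2 in Mxi1 +/+ and 34.6 in Mxi1 -/-, a log2 difference of 0.20 (1.15-fold higher). It was the highest difference of the 8. Sgk1, the aldosterone-induced kinase, read 13.8 and 10.2, a log2 difference of -0.43 (1.35-fold lower). These members of the same hormone pathway were therefore 0.63 apart on the log2 scale.

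The sodium channel subunits were close to equal in both kidneys. Scnn1b read 12.9 in Mxi1 +/+ and 12.0 in Mxi1 -/-, a log2 difference of -0.10. Scnn1g read 7.13 and 7.34, a log2 difference of 0.04. Both lay within 1 standard deviation of the probe spread, and the gap of 0.14 between them was also smaller than the 0.24 expected for 2 probes. They are neighbouring genes on chromosome 7 of the mouse RefSeq gene table, and the alpha subunit is not analysed here.

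**Figure D1:**
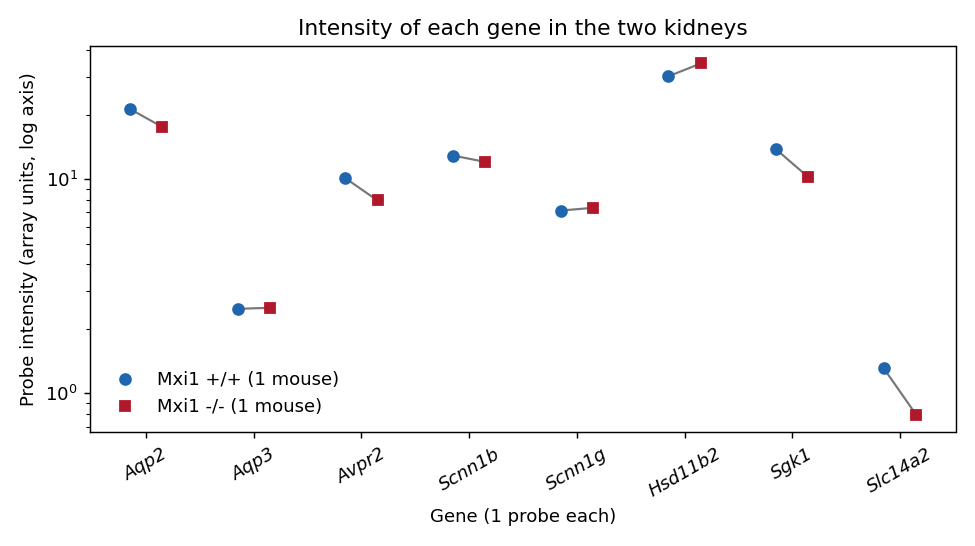
Probe intensity (array units, log axis) of each of the 8 genes in the kidney of 1 Mxi1 +/+ mouse (blue circles) and 1 Mxi1 -/- mouse (red squares), joined by a line per gene. The steepest downward line is Slc14a2, from 1.31 to 0.795, and the lines of Aqp3 and Scnn1g are nearly level.

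Of the 8 genes 5 were lower and 3 higher, and their median log2 difference was -0.19. Among all 9985 measured genes 55.5% were lower, and among the 5737 brighter genes 59.9% were, so the 62.5% of the 8 genes was close to the background. The medians of those sets were -0.05 and -0.06. A smaller line of size was set where the lower reading is 0.8 times the higher or less. By it 3 of the 8 genes were lower in Mxi1 -/- (Avpr2, Sgk1 and Slc14a2), against 23.2% of all measured genes and 17.6% of the brighter ones. After quantile normalization or lowess the count was 2, because Avpr2 no longer passed. None of the 8 was higher by it, against 18.6% and 8.12%. At 1.5-fold, Slc14a2 alone was lower, against 11.9% and 5.26%, and none was higher, against 10.8% and 2.41%. None of the 8 reached 2-fold, where the background was 5.59% and 1.39% lower and 5.77% and 0.558% higher.

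Single members were placed among the 5737 brighter genes. Of these, 3.26% had a lower difference than Slc14a2, 10.2% a lower one than Sgk1, 15.7% a lower one than Avpr2 and 21.4% a lower one than Aqp2. At the other end, 84.7% lay below Hsd11b2. Counting differences of either sign, 31.6% of the genes differed more than Aqp2, 69.7% more than Scnn1b, 86.7% more than Scnn1g and 94.6% more than Aqp3. The differences of Aqp2, Avpr2 and Sgk1 came to 1.67, 2.07 and 2.59 times the probe spread, and that of Hsd11b2 to 1.19 times. Scatter depended on level: the central 95% of differences ran from -1.12 to 0.88 in the level bin that holds Slc14a2 and from -0.72 to 0.44 in the brightest bin, which holds all the others but Aqp3.

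**Figure D2:**
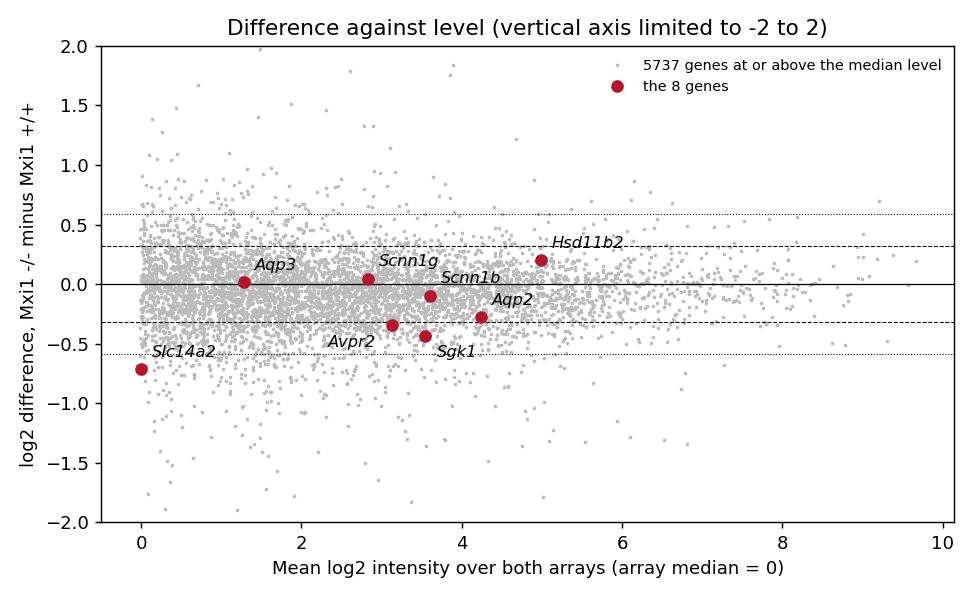
Each grey point is 1 of 5737 brighter genes, with its mean log2 intensity on the horizontal axis and its log2 difference (Mxi1 -/- minus Mxi1 +/+) on the vertical axis, and the 8 genes are red. Dashed lines mark a ratio of 0.8 either way and dotted lines 1.5-fold; Avpr2 and Sgk1 lie below the lower dashed line, and Slc14a2, at the left edge, lies below the lower dotted line.

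Other genes of the vasopressin pathway (receptors, adenylyl cyclases, kinase A subunits and anchors, phosphodiesterases, and the vesicle machinery that carries AQP2) were spread around equality. Of 28 measured genes 16 were lower and 12 higher, their median log2 difference was -0.10, and 8 were lower and 6 higher by the ratio of 0.8. Among all measured genes 55.5% were lower by any amount, and by that ratio 23.2% were lower and 18.6% higher. The same shares are the background for the pathway lists that follow. The largest lower differences among brighter genes were those of Ptger1, a prostaglandin E2 receptor, which read 7.67 in Mxi1 +/+ and 2.88 in Mxi1 -/- (log2 -1.41), and Stx4a, a membrane fusion protein, which read 11.3 and 6.21 (log2 -0.87). The largest higher ones were those of Gnas, the stimulatory G protein to which AVPR2 couples, at 0.940 and 1.32 (log2 0.49), and of the vasopressin receptor Avpr1b at 1.38 and 1.80 (log2 0.38). The vasopressin receptor Avpr1a, not among the brighter genes and chosen after its values were seen, went the other way, at 1.51 and 0.595 (log2 -1.35). The cyclase Adcy6, chosen after its values were seen because it makes cAMP downstream of AVPR2, read 12.8 and 11.0 (log2 -0.22).

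Genes around the mineralocorticoid receptor and SGK1 lay close to equality as a list. Of 18 measured genes 10 were lower and 8 higher (median -0.03), and the 13 brighter ones had a median of 0.05. Lower among the brighter ones were Ndrg2, an aldosterone-induced gene, at 8.51 and 5.89 (log2 -0.53), and the ubiquitin ligase Nedd4 at 1.81 and 1.41 (log2 -0.36). Higher were Usp2, a deubiquitinase, at 12.4 and 18.8 (log2 0.60), and Pdpk1, the kinase that activates SGK1, at 1.99 and 2.77 (log2 0.48). Nedd4l, the ligase that removes the sodium channel from the membrane and that SGK1 inhibits, was chosen after its values were seen and read 11.7 and 10.5 (log2 -0.16). The steroid target Tsc22d3, chosen in the same way, read 38.5 and 36.4 (log2 -0.08).

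Transport partners divided. Of 10 measured sodium, potassium and pump genes 5 were lower and 5 higher (median -0.13). All 5 lower ones passed the ratio of 0.8, as did 23.2% of all measured genes and 17.6% of the brighter ones. The 8 brighter genes alone (5 lower, 3 higher) had a median of -0.40. They included the apical potassium channel Kcnj1, at 9.55 and 6.08 (log2 -0.65), and the chloride-bicarbonate exchanger Slc26a4, at 5.09 and 3.40 (log2 -0.58). On the higher side were the thiazide-sensitive cotransporter Slc12a3, at 25.2 and 30.2 (log2 0.26), and Furin, a protease that cleaves sodium channel subunits, at 46.2 and 48.6 (log2 0.07). Also higher was Fxyd2, named after its values were seen, at 539 and 566 (log2 0.07). The remaining higher genes, Slc4a8 and Kcnma1, named in the same way, did not reach the noise floor of either array and have no resolved direction.

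Of 7 other aquaporin and urea transporter genes 6 were lower (median -0.31), although only 3 were brighter ones, with a median of -0.16. These were Aqp7, which conducts glycerol as well as water, at 4.37 and 3.52 (log2 -0.31), the proximal tubule and thin limb water channel Aqp1, at 35.8 and 32.0 (log2 -0.16), and Aqp5, at 2.14 and 2.51 (log2 0.23). Adjacent genes of these families did not all share a direction. In the RefSeq gene table Aqp5 neighbours Aqp2 (log2 0.23 against -0.28) and Aqp7 neighbours Aqp3 (log2 -0.31 against 0.02). Slc14a1, the urea transporter next to Slc14a2, read 0.907 and 0.580 (log2 -0.64, against -0.72). It is not among the brighter genes, and Slc14a2 is only just counted there. These neighbours were compared after the values were seen.

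In the renin-angiotensin and natriuretic list 6 of 9 genes were higher (median 0.21), but only 3 were brighter ones. These were angiotensinogen (Agt), at 2.25 and 1.79 (log2 -0.33), the angiotensin receptor Agtr2, at 1.16 and 1.64 (log2 0.50), and the aminopeptidase Enpep, which cleaves angiotensin, at 8.92 and 10.3 (log2 0.21). Osmotic stress genes, which the salt and urea of the medulla induce, were 5 higher and 4 lower of 9 (median 0.09). The small heat shock protein Cryab read 75.02 and 29.9 (log2 -1.33) and the glypican Gpc4 6.17 and 5.19 (log2 -0.25). The betaine transporter Slc6a12 read 0.839 and 1.48 (log2 0.81) and the heat shock protein Hspb1 42.3 and 53.7 (log2 0.34). Nfat5, the transcription factor of the tonicity response, was chosen after its values were seen and read 2.64 and 3.16 (log2 0.26).

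With 2 arrays, likeness to a member can only mean a near-equal log2 difference. Among 52 brighter genes in these 6 lists, the nearest to Avpr2 was Fxyd4, a regulator of the sodium pump (-0.34 against -0.35). The nearest to Aqp2 was Crem, a cAMP-responsive transcription factor (-0.26 against -0.28), and the nearest to Sgk1 was the prostaglandin receptor Ptger3 (-0.41 against -0.43). Kcnj1 was nearest to Slc14a2 (-0.65 against -0.72) and Enpep to Hsd11b2 (0.21 against 0.20). Adcy9, Akap12 and Cnksr3 were nearest to Aqp3, Scnn1b and Scnn1g, with gaps of 0.0087, 0.016 and 0.0046. Every gap was below the standard deviation of 0.24 for a gap between 2 probes, so which gene is nearest is not resolved.

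In whole kidney RNA, fewer cells of a type and less RNA per cell cannot be told apart, so markers of the cells that the kidneys could hold are given beside the 8 genes. Other principal cell genes were lower in 16 of 17 cases, against 55.5% of all measured genes and 59.9% of the brighter ones. Their median was -0.50 (-0.35 over the 13 brighter ones), against -0.19 for the 8 genes. By the ratio of 0.8, 12 were lower, against 23.2% of all measured genes and 17.6% of the brighter ones. These background shares apply to the cell type lists below too. The keratin Krt18 read 15.3 and 6.50 (log2 -1.24) and the epithelial transcription factor Ehf 1.85 and 0.860 (log2 -1.10). The exception was the related factor Elf3, at 2.06 and 2.31 (log2 0.17). The summed intensity of the list was 418 in Mxi1 +/+ and 312 in Mxi1 -/-. The list holds keratins and other genes that are not confined to principal cells. Gata3, a regulator of collecting duct identity, chosen after its values were seen, read 3.82 and 3.04 (log2 -0.33). Hoxb7, a transcription factor of the same lineage chosen in the same way, read 12.3 and 11.7 (log2 -0.08).

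Intercalated cells, the acid-base cells of the same duct, gave 8 lower and 2 higher of 10 genes (median -0.24, or -0.14 over the 8 brighter ones; summed intensity 123 and 119). The receptor Kit read 3.22 and 2.22 (log2 -0.54) and the transcription factor Foxi1 3.06 and 2.33 (log2 -0.39). The proton pump subunit Atp6v1b1 (log2 0.15) and the carbonic anhydrase Car15 (log2 0.15) were higher. In the segments upstream, 4 of 7 thick ascending limb genes were lower (median -0.17, summed intensity 133 and 135), with the claudins Cldn10 (log2 -0.38) and Cldn19 (log2 -0.37) on the lower side and Egf (log2 0.39) and Enox1 (log2 0.04) on the higher. Of 6 distal convoluted and connecting tubule genes 4 were higher (median 0.15, or 0.09 over the 5 brighter ones; summed intensity 1211 and 1303), led by the calcium binder Calb1 (log2 0.31) and the protease Klk1 (log2 0.21), with Trpm6 (log2 -0.43) and S100g (log2 -0.09) lower. Proximal tubule genes were split 11 higher and 8 lower of 19 (median 0.0080, summed intensity 2522 and 2760). Their extremes were Napsa (log2 0.70), Dpep1 (log2 0.59), Gatm (log2 -0.64) and Slc3a1 (log2 -0.51).

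Markers of the urinary tract lining, fat and vessels are given last. Urothelial and stratified epithelium genes were lower in 10 of 13 cases (median -0.76, or -1.99 over the 8 brighter ones; summed intensity 45.8 and 21.0), with Sprr1a at 11.5 and 2.29 and Sprr2a1 at 4.81 and 0.978. In that list the urothelial plaque gene Upk1b read 9.77 and 10.0 (log2 0.04). Fat cell genes were lower in 9 of 10 cases (median -1.64, summed intensity 415 and 215), with Cidea at 6.20 and 0.312 and Car3 at 29.3 and 4.33, and the brown fat marker Ucp1, named after its values were seen, under the floor in Mxi1 -/-. Endothelial, vessel wall and glomerular genes were lower in 7 of 11 cases (median -0.35, summed intensity 84.8 and 70.1), but the 9 brighter ones alone (5 lower, 4 higher) had a median of -0.11. Myh11 (log2 -0.80) and Emcn (log2 -0.79) were lower, and Kdr (log2 0.38) and Tie1 (log2 0.16) were higher. How far these markers bear on the lower readings of Slc14a2, Sgk1, Avpr2 and Aqp2 was not tested.

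**Figure D3:**
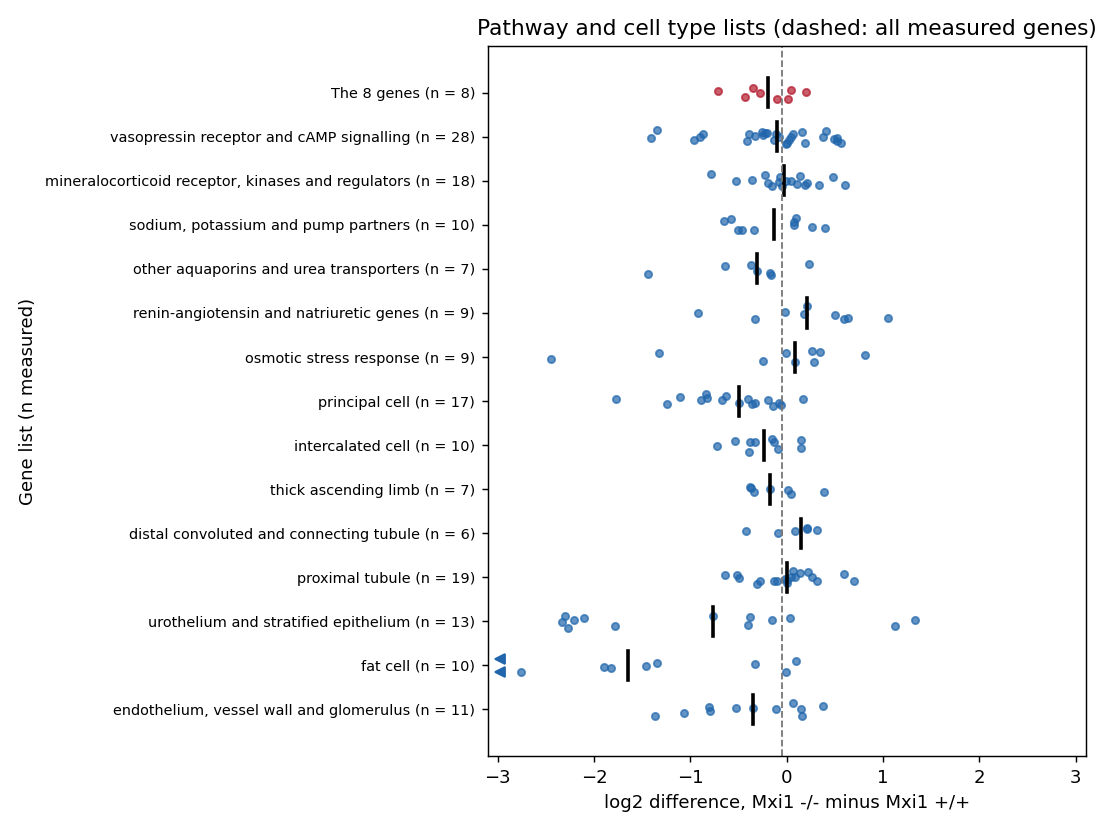
log2 differences (Mxi1 -/- minus Mxi1 +/+) of the 8 genes (red) and of the measured genes of 14 pathway and cell type lists (blue), 1 point per gene, with black bars at the medians, a dashed line at the median of all measured genes (-0.05) and triangles for 2 fat cell genes below -3. The 8 genes lie between -0.72 and 0.20, with a median of -0.19, to the right of the principal cell median of -0.50.

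Each member kept its direction under the 6 other ways of processing its value. Aqp3, at 0.0012 to 0.06, Scnn1b, at -0.112 to -0.029, and Scnn1g, at 0.025 to 0.105, stayed within the probe spread of 0.167. By that spread these genes are indistinguishable from equality. It holds no variation between animals, so a larger difference of another member is not thereby distinguished from equality. Avpr2 lay between -0.36 and -0.28, Sgk1 between -0.45 and -0.37, Aqp2 between -0.29 and -0.22, and Hsd11b2 between 0.18 and 0.28.

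**Figure D4:**
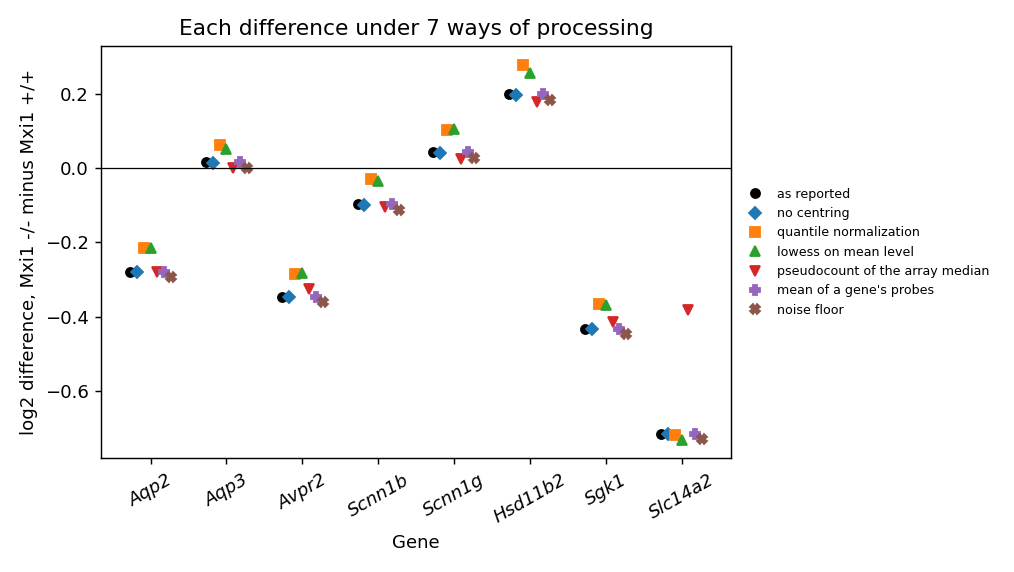
log2 difference of each of the 8 genes (horizontal axis) as reported (black) and under 6 other ways of processing (coloured symbols). The symbols of a gene lie close together except for Slc14a2, which moves from -0.72 to -0.38 with a pseudocount.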

How the data were processed

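The deposited file gives linear intensities of 20289 probes on 2 arrays. Per the labels' protocols, biotin-labelled cRNA was made with a kit for CodeLink arrays; how the authors scanned, background-corrected and normalized these intensities is not given in the sources used here. In the file, -9999 was read as missing (60 and 39 probes). GEO's platform annotation named 1 gene for 10349 probes, several for none, and left 9940 unnamed; symbols were updated by gene identifier through RefSeq (GRCm38.p6). Apart from those of the promoter windows shown, gene and probe coordinates are not given, because no build is named for the probes.

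Intensities were put on the log2 scale with no pseudocount, and the array median over the 19663 probes above 0 in both was subtracted. A gene with several probes took the brightest. Other settings were quantile normalization, lowess on level, leaving out the centring, a noise floor, a level filter, averaged probes, a pseudocount of the array median, and lines of 1.5-fold and 2-fold. The number of arrays, 1 per genotype, limits the precision. Members, lists and naming rule were chosen with earlier results of these data known. From each of 14 lists the text names the 2 brighter genes (a mean level that reaches the probe median) with the largest difference in each direction, and marks genes named outside this rule. The list genes number 248, of which 174 were measured. The log2 and centring steps were tested on simulated data. The tools were NumPy 2.4.6, pandas 2.3.3 and statsmodels 0.14.6 under Python 3.11.15, with figures from matplotlib 3.10.9.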

Additional observations from a re-analysis of the deposited data

How the results depend on the processing

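The median log2 difference of the 8 genes, -0.19, ran from -0.20 with a noise floor to -0.12 after quantile normalization, and no member changed direction. Of 48 values recomputed for single members, 47 moved by less than the probe spread of 0.167, and Slc14a2 moved from -0.72 to -0.38 with a pseudocount of the array median. With that pseudocount the number of members at least 1.5-fold lower went from 1 to 0, and 2.08% of all genes passed that line in place of 11.9%. The number lower by the ratio of 0.8 was 3 as reported and 2 after quantile normalization or lowess, where Avpr2 came to -0.29 and -0.28. At 1.5-fold it was 1 and at 2-fold 0. Averaging probes touches none of the 8, which have 1 probe each, and all 8 passed the level filter, so those settings could not move them. Leaving out the centring, or setting a noise floor, shifted all 8 by a common amount far below the probe spread. The values from averaging, no centring and the noise floor in the count of 47 therefore say little about stability. No paired analysis was possible because there is 1 mouse per genotype and no test.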
